A study of Mus musculus with 18 samples.

Results

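The genes described here are the membrane channel and junction genes of the lens: the aquaporins Mip, Aqp1 and Aqp5, the connexins Gja1 and Gja3, and the tetraspan membrane protein gene Lim2. They were found by symbol in the count table, and all 6 symbols are among its 40800 Ensembl identifiers, although 1 of them, Lim2, has no reads. Whole mouse lenses on the C57BL/6J strain were pooled for 18 RNA-seq libraries, with 3 libraries in each of 6 groups. In the Cryaa-R49C knock-in line, which carries a missense change in the alpha A-crystallin gene, 2-day-old wild-type (Cryaa-WT), heterozygous (Cryaa-R49C-het) and homozygous (Cryaa-R49C-homo) lenses were sequenced. In the Cryab-R120G knock-in line, which carries a missense change in the alpha B-crystallin gene, lenses of the 3 corresponding genotypes (Cryab-WT, Cryab-R120G-het, Cryab-R120G-homo) were taken at 14 days of age. Each allele sits in the endogenous gene, so every cell of the animal carries it. The line and the age change together, so that a difference between the lines and a difference between day 2 and day 14 cannot be told apart. Genotypes were taken from the sample titles, since the genotype field of the 6 Cryab mutant libraries names the Cryaa line.

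The lens has no blood supply of its own, and its cells share water, ions and small metabolites through channels in their membranes. A single layer of epithelial cells covers the front of the lens, and these cells elongate at the equator into fibre cells that lose their organelles. Mip (also called AQP0) is the most abundant membrane protein of fibre cells and acts as a water channel and in cell adhesion. Aqp1 is the water channel of the lens epithelium, and it is also strongly expressed in endothelial cells and erythrocytes. Aqp5 is a water channel known best from glands and cornea and is also found in the lens. Gja1 encodes Cx43, the connexin of epithelial gap junctions, whereas Gja3 encodes Cx46, a connexin of fibre gap junctions. Lim2 encodes MP20, a fibre membrane protein of the PMP22 and claudin superfamily. Mutations of Mip, Gja3 and Lim2 are known causes of cataract.

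On the mouse GRCm38 assembly, Mip lies on chromosome 10 (chr10:128225838-128231812, plus strand) and Gja1 lies on the same chromosome (chr10:56377330-56402513, plus strand). Aqp1 is on chromosome 6 (chr6:55336432-55348555, plus strand), Aqp5 on chromosome 15 (chr15:99590782-99594829, plus strand) and Gja3 on chromosome 14 (chr14:57034460-57058100, minus strand). All of these are annotated as protein-coding genes. The exons of Mip share 1223 bases (57.0% of its exon bases) with the antisense lincRNA gene Gm26847, which had 1296 to 5502 reads in a library. Whether strand was used in counting is not given in the sources used here, so the reads of Mip and of Gm26847 in that stretch cannot be told apart, and reads there may have been given to neither gene.

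The row named Lim2 (ENSMUSG00000004613) held 0 reads in all 18 libraries, and the fit could not test it. A second row, named Gm42419 (ENSMUSG00000093639), carries the identifier that the GENCODE vM21 annotation names Lim2 (chr7:43427670-43435996, plus strand). That row had 92 to 555 reads in a library. The length behind its deposited RPKM values was 2180.4 bases, against 2180 exon bases in the annotated retained-intron transcript of the locus and 884 in the protein-coding one, of which 879 (99.4%) lie inside the retained-intron exons. The authors counted only reads that fell on a single gene, so reads from the shared exons may have been lost from both rows. The zeros of the Lim2 row are therefore no measure of Lim2 expression. The Gm42419 row is given below as the reads that remained at the Lim2 locus and not as the level of the Lim2 mRNA. This row was chosen after the zeros were seen.

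The stretches just upstream of 3 of these genes are shown because Mip and Gja1 carry the largest tested differences among the well covered members and Gja3 is a fibre connexin set against Gja1 below. Sequences are from the RefSeq promoter table of GRCm38.p6, in the direction of transcription, and end at the base before the Ensembl start of the gene. Capitals mark matches, on either strand, to a TATA box (TATAAA), an Sp1 GC box (GGGCGG), an AP-1 site (TGANTCA) or a MAF half-site (TGCTGAC). They come from chr10:128225560-128225837, plus strand (Mip), chr10:56377050-56377329, plus strand (Gja1), and chr14:57058101-57058280, minus strand (Gja3).
Mip: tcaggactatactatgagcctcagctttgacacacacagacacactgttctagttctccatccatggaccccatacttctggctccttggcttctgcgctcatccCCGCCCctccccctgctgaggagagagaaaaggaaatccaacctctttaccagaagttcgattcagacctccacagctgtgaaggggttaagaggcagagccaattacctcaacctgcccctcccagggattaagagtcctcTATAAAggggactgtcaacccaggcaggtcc
Gja1: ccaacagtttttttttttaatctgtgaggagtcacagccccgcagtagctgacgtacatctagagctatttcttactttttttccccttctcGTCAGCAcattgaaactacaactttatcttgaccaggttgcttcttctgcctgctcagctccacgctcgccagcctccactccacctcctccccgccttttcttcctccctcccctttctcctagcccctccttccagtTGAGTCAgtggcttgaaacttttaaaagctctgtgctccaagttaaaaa
Gja3: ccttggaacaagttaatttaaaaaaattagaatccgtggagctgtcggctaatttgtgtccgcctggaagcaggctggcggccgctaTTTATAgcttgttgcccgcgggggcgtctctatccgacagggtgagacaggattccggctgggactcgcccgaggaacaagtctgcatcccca
The Mip stretch holds a TATAAA match 31 bases before the Ensembl start and 1 GC box. The Gja1 stretch holds 1 AP-1 match 49 bases before the Ensembl start and 1 MAF half-site on the other strand, and no TATAAA or GGGCGG match. The Gja3 stretch holds 1 TATA box match on the other strand. Its full 300-base window also holds a GC box match at position 21 after the RefSeq start, past the end of the printed stretch. Another Gja3 window of the table (chr14:57057674-57057973) held no match. None of these matches overlaps another one. Among the 32851 promoters of the table, each with 250 bases before and 50 after the RefSeq start, 7.81% hold the AP-1 letters, 4.67% the MAF half-site, 35.7% the GC box and 13.6% TATAAA. The 300-base windows of the other members were searched too. Aqp5 had 3 GC box matches and Aqp1 had 1. Lim2 had 1 match to the SOX letters (ACAATG), which 12.6% of promoters hold. Heat shock element (GAANNTTC, 7.86% of promoters) and ATF4-CHOP composite (TGATGNAAT, 0.965%) letters were not in the windows of the 6 members. A match is a string of letters, and no factor was measured at these sites.

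Libraries held 14272174 to 29639719 counted reads. The noncoding gene Gm42418 and the crystallin genes took much of each library, and the Cryaa-R49C-homo libraries differed among themselves in both. Gm42418 took 2.53%, 24.5% and 42.6% of the reads of replicates 1, 2 and 3 of this group, and crystallin genes took 61.2%, 37.7% and 23.8%. Replicate 2 thus lay inside the Cryaa-WT range of the Gm42418 share (20.01 to 30.1%), while replicate 1 had the lowest share of all 18 libraries and replicate 3 the highest. Member results that rest on replicate 1, the one with the most crystallin reads of the 3, are given with and without it. Levels below are CPM (the read count over the library total, scaled by TMM). TMM factors were 1.20 to 2.26 for day 2 libraries and 0.488 to 0.774 for day 14 libraries, so that comparisons across the lines depend on it more than those within a line.

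Per kilobase of the exon length used by the authors, Mip and Gja3 were the most abundant members in day 2 Cryaa-WT lenses. The level of Mip may lack reads from the stretch shared with Gm26847, here and in the ratios to Mip below. Mip was at 122 ± 29.98 CPM per kilobase (SD, n = 3) and Gja3 at 96.3 ± 14.7, and their libraries overlapped. Gja1 followed at 8.92 ± 2.74. The Gm42419 row was at 4.35 ± 1.04, Aqp1 at 1.54 ± 0.300 and Aqp5 at 0.288 ± 0.123 CPM per kilobase. From Gja3 down to Aqp5, no library of a gene reached into the range of its neighbour. In day 14 Cryab-WT lenses Mip was at 387 ± 28.5 and Gja3 at 112 ± 28.0 CPM per kilobase, with no overlap between them. The Gm42419 row was at 14.0 ± 2.93 and Aqp5 at 12.3 ± 4.30, and their ranges overlapped. Gja1 at 4.25 ± 0.652 and Aqp1 at 1.47 ± 0.109 CPM per kilobase came last. Aqp5 thus was the lowest member with reads on day 2 and stood above Gja1 and Aqp1 on day 14. The rest of the order depends on the gene lengths, since the exons of Gja1 cover 10257 bases in GENCODE vM21 against the 3106 behind the RPKM values, and those of Gja3 2963 against 1548. With the vM21 lengths, an alternative added after seeing the data, Gja3 was at 50.3 ± 7.66 CPM per kilobase in Cryaa-WT, below all libraries of Mip. Gja1 was then at 2.70 ± 0.828, lower than the Gm42419 row (4.34 ± 1.04), and its libraries overlapped with those of that row and of Aqp1. On day 14 Gja1 was at 1.29 ± 0.197 CPM per kilobase with these lengths, overlapping with Aqp1 at 1.47 ± 0.109, and Aqp5 at 7.89 ± 2.76 no longer overlapped with the Gm42419 row.

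**Figure D1:**
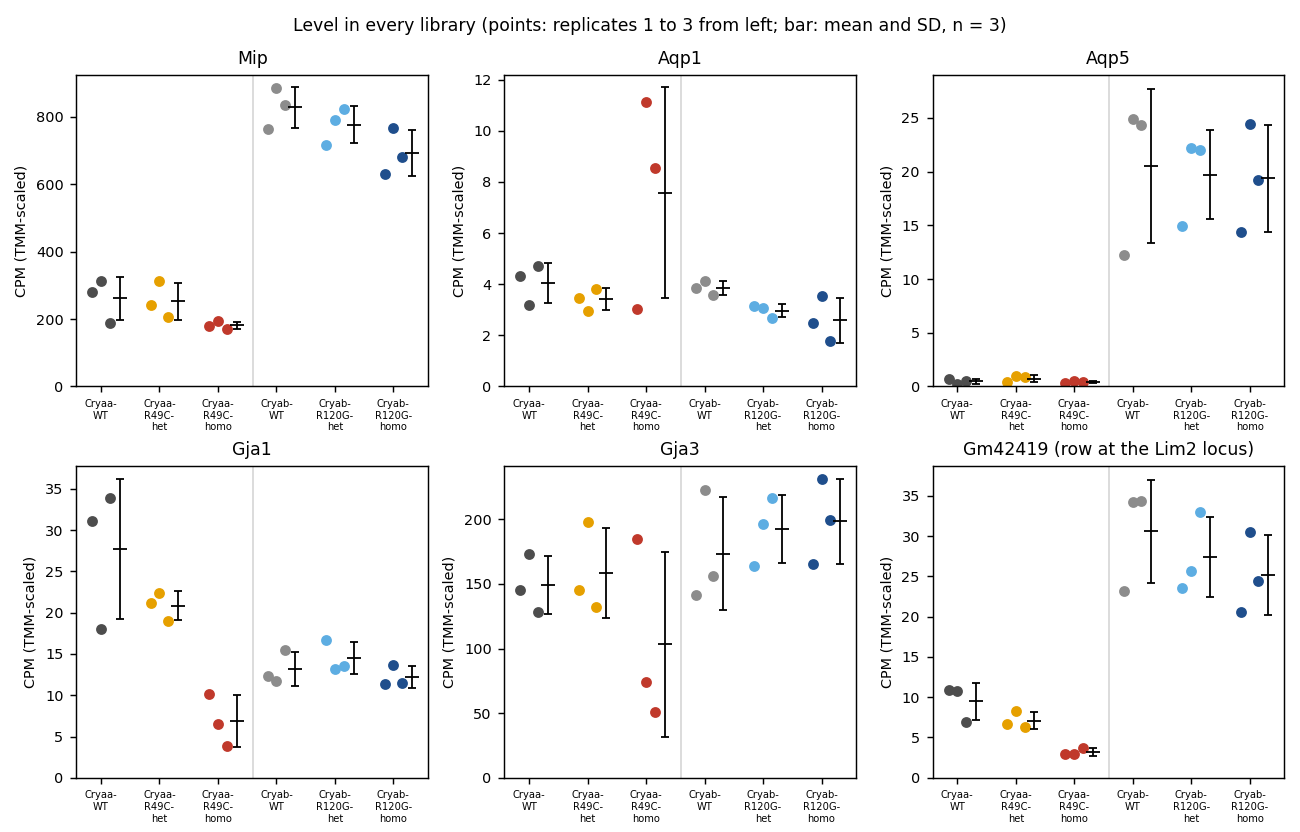
TMM-scaled CPM (vertical axes, starting at 0) of the 5 members with reads and of the Gm42419 row at the Lim2 locus in each of the 18 libraries, grouped by genotype, with the mean and SD of each group at its right. Gja1 is lowest in the 3 Cryaa-R49C-homo libraries (3.88 to 10.2 CPM), Aqp5 is near 0 in all 9 day 2 libraries, and Cryaa-R49C-homo replicate 1 lies apart from replicates 2 and 3 for Aqp1 and Gja3.

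Homozygous Cryaa-R49C lenses had less Gja1 than their wild-type controls. The 3 Cryaa-WT libraries held 31.1, 18.02 and 34.0 CPM of Gja1, the Cryaa-R49C-het libraries 21.2, 22.4 and 19.0, and the Cryaa-R49C-homo libraries 10.2, 6.53 and 3.88. Every homozygous library lay below every wild-type and every heterozygous one. Gja1 was 4.01-fold lower in Cryaa-R49C-homo than in Cryaa-WT (log2 fold change -2.00, SE 0.28, 95% interval -2.59 to -1.42, adjusted p = 4.77e-05, edgeR quasi-likelihood test over all genes). Against the heterozygous lenses it was 3.02-fold lower (log2 -1.60, edgeR adjusted p = 7.97e-04). Cryaa-R49C-het and Cryaa-WT libraries overlapped, with a log2 difference of -0.41 (95% interval -0.97 to 0.15, edgeR adjusted p = 0.836). In the homozygous against wild-type comparison Gja1 was the only member called among the 5 tested, where 9.79% of the 13938 genes tested were called and 4.92% were called lower. Against heterozygous lenses 2 of 5 members were called, Gja1 lower and Aqp1 higher, where 8.32% of genes were called. No member was called between heterozygous and wild-type lenses, where 0.00717% of genes were (1 gene, and 708 at an unadjusted p under 0.05). Homozygous and wild-type libraries did not overlap for 1 of the 5 members, against 24.5% of all genes, and homozygous and heterozygous libraries for 2 of 5 (Gja1 and Mip, both below), against 22.0%. Heterozygous and wild-type libraries overlapped for all 5, where 21.9% of genes did not. The fall of Gja1 in Cryaa-R49C-homo against Cryaa-WT passed the threshold in all 7 other ways of fitting the counts and with any 1 of the 6 libraries left out, with an adjusted p of at most 0.0196.

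Gja3, a fibre connexin gene, did not follow Gja1 in every library. Gja3 was at 145.1, 173.5 and 128.6 CPM in Cryaa-WT, at 145.4, 198.0 and 132.3 in Cryaa-R49C-het, and at 184.9, 74.5 and 50.9 in Cryaa-R49C-homo. Replicate 1 of the homozygous group had more Gja3 than any wild-type library, while replicates 2 and 3 had less than all of them. The log2 difference from Cryaa-WT was -0.53 (SE 0.33, 95% interval -1.21 to 0.16, edgeR adjusted p = 0.351). Without replicate 1 of Cryaa-R49C-homo it was -1.25 (edgeR adjusted p = 5.23e-04), so this library decides whether Gja3 is called. Calls over all genes also rose in that fit, to 3094 of 14398 from 1365 of 13938.

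Of the aquaporins, none was called between Cryaa-R49C-homo and Cryaa-WT lenses. Mip was at 280.5, 314 and 189.9 CPM in Cryaa-WT, at 241, 314 and 205 in Cryaa-R49C-het, and at 180.5, 193 and 170.5 in Cryaa-R49C-homo. The homozygous libraries lay close together, and 1 of them was above the lowest wild-type library. The log2 difference was -0.53 (SE 0.22, 95% interval -0.98 to -0.08, edgeR adjusted p = 0.132). DESeq2 gave an adjusted p of 0.0458 for it, so its call depends on the tool.

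Aqp1 was at 4.30, 3.17 and 4.69 CPM in Cryaa-WT, at 3.46, 2.97 and 3.81 in Cryaa-R49C-het, and at 3.04, 11.1 and 8.55 in Cryaa-R49C-homo. Replicates 2 and 3 of the homozygous group lay above every other day 2 library, and replicate 1 lay below every wild-type library. The log2 difference from Cryaa-WT was 0.89 (SE 0.33, edgeR adjusted p = 0.0887), and from Cryaa-R49C-het it was 1.14 (SE 0.33, edgeR adjusted p = 0.0329). Without replicate 1 of Cryaa-R49C-homo, 3094 of 14398 genes were called in place of 1365 of 13938. The difference of Aqp1 from Cryaa-WT was then 1.28 (edgeR adjusted p = 5.09e-04). It also passed the threshold in 2 of the 7 other fits, with all genes of at least 1 count (0.91, edgeR adjusted p = 0.0395) and with library size as the only scaling (1.22, edgeR adjusted p = 0.0335). The call against Cryaa-R49C-het was lost on leaving out any 1 of the other 5 libraries of that comparison, with an adjusted p of up to 0.280 (edgeR). The log2 difference was 0.75 without replicate 2 of Cryaa-R49C-homo and 1.04 to 1.22 in the other 4 of these fits.

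Aqp5 had only 8 to 34 reads in a day 2 library. It was at 0.681, 0.270 and 0.490 CPM in Cryaa-WT and at 0.308, 0.534 and 0.456 in Cryaa-R49C-homo, and the groups overlapped. The log2 difference was -0.15 with a 95% interval from -1.06 to 0.75 (edgeR adjusted p = 0.876), so a difference of either sign inside this interval remains possible.

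The reads left at the Lim2 locus fell in homozygous lenses. The Gm42419 row was at 10.9, 10.7 and 6.86 CPM in Cryaa-WT, at 6.72, 8.25 and 6.25 in Cryaa-R49C-het, and at 2.97, 2.89 and 3.72 in Cryaa-R49C-homo. All 3 homozygous libraries, replicate 1 included, lay below all libraries of the other day 2 groups. The row was 2.97-fold lower than in Cryaa-WT (log2 -1.57, SE 0.24, edgeR adjusted p = 1.53e-04) and 2.22-fold lower than in Cryaa-R49C-het (log2 -1.15, edgeR adjusted p = 0.00435). Both differences passed the threshold in all 7 other fits and with any 1 library left out.

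**Figure D2:**
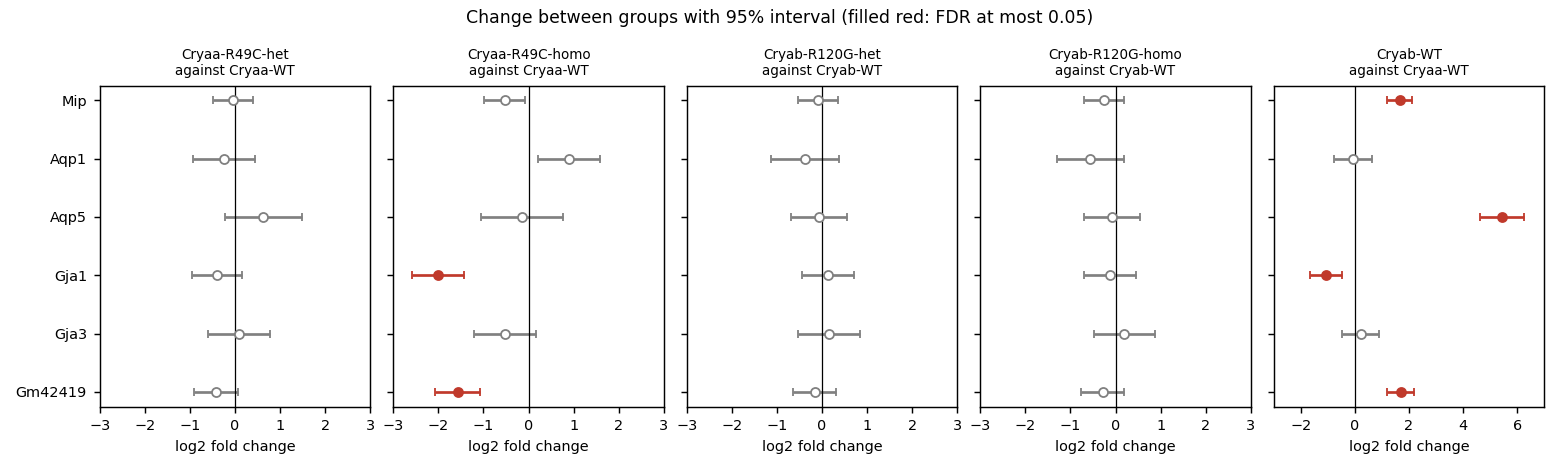
The log2 fold change (horizontal axes, wider in the last panel) of the members with reads and of the Gm42419 row in 5 comparisons, with 95% intervals from the edgeR fit. Filled red points have an adjusted p of at most 0.05. Red points appear in the Cryaa-R49C-homo panel (Gja1 at -2.00, Gm42419 at -1.57) and in the wild-type panel, and none in the panels of the heterozygous groups or of Cryab-R120G-homo.

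Marker lists of the cell types that a lens dissection could hold were summed in each library, and their part in the differences above was not tested. In a bulk library, fewer cells of a type and less RNA per cell cannot be told apart. Lens epithelium markers, among them Foxe3 and Pax6, summed to 501.5 to 581.5 CPM in Cryaa-WT and to 510.5, 362 and 275 CPM in Cryaa-R49C-homo replicates 1, 2 and 3. None of these 8 markers was called between the groups (median log2 -0.40, against 0.00 over all genes tested). Pigment and ciliary epithelium markers summed to 21.2 to 38.2 CPM in Cryaa-WT and to 16.2, 11.5 and 10.5 in Cryaa-R49C-homo, below the wild-type range in all 3 libraries. Of these 9 markers 3 were called lower and none higher (median log2 -1.28), where 9.79% of all genes were called and 4.92% called lower. They were the melanosome genes Mlana (log2 -2.17, edgeR adjusted p = 0.0329) and Pmel (log2 -2.02, edgeR adjusted p = 0.00692), and Slc6a13, a GABA transporter gene (log2 -1.62, edgeR adjusted p = 0.0151). Lens fibre markers summed to 30447 to 49548 CPM in Cryaa-WT and to 28957, 17530 and 18743 in Cryaa-R49C-homo, again below the wild-type range in all 3 libraries, and 10 of 12 were called lower and none higher (median log2 -1.47). Gja1 was below its wild-type range in the same 3 libraries. The strongest falls were those of Lctl, a lactase-like gene of the klotho family (log2 -3.82, edgeR adjusted p = 9.40e-09), Lgsn, the lens protein lengsin (log2 -2.23), and Bfsp1, a beaded filament protein of the fibre cytoskeleton (log2 -2.23). Endothelium markers summed to 29.6 to 45.9 CPM in Cryaa-WT and to 29.2, 94.9 and 86.4 in Cryaa-R49C-homo. They were thus high in the same 2 libraries in which Aqp1 was high. Of the 7 endothelium markers, Cdh5, a junction protein of vessel walls, was called higher (log2 1.78, edgeR adjusted p = 0.0247). Erythrocyte markers, at 36.8 to 57.8 CPM in Cryaa-WT, summed to 41.5, 150 and 79.5 in the same 3 libraries. Macrophage markers summed to 4.25 to 7.49 CPM in Cryaa-WT and to 8.91 to 18.6 in Cryaa-R49C-homo, above the wild-type range in all 3 libraries. Of the 5 macrophage markers 2 were called higher, C1qa (log2 1.53) and Aif1 (log2 1.49), and none lower (median log2 1.30).

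**Figure D3:**
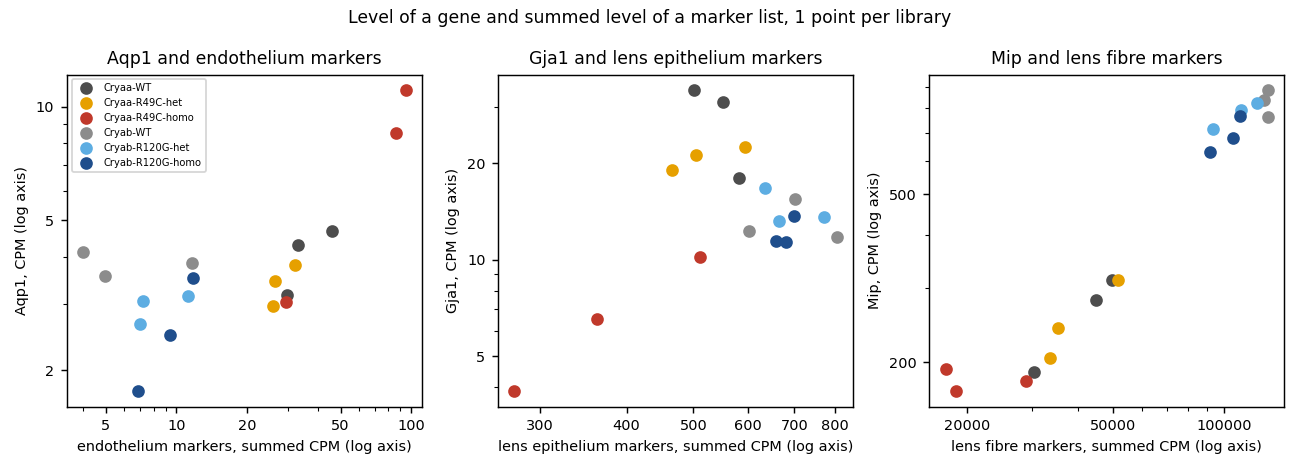
Aqp1, Gja1 and Mip (vertical log axes, CPM) against the summed CPM of endothelium, lens epithelium and lens fibre markers (horizontal log axes), 1 point per library. The 2 Cryaa-R49C-homo libraries with the most Aqp1 (11.1 and 8.55 CPM) have the highest endothelium sums (94.9 and 86.4 CPM), the 3 Cryaa-R49C-homo libraries have the least Gja1, and Mip is highest in the Cryab line, where the fibre sums are highest.

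No member was called in the Cryab-R120G line on day 14. Mip was at 765, 886 and 836 CPM in Cryab-WT, at 716, 791 and 825 in Cryab-R120G-het, and at 631, 766 and 682 in Cryab-R120G-homo. The wild-type and homozygous libraries of Mip overlapped by a small margin, with a log2 difference of -0.26 (95% interval -0.71 to 0.19, edgeR adjusted p = 0.944). The labels do not link same-numbered libraries of these groups. They were treated as pairs only because their deviations from the group means correlated (r above 0.1), so the matching may be arbitrary. Mip was lower in the homozygous library of all 3 such pairs, with a log2 difference of -0.26 in the fit that blocked on the pair (SE 0.18, edgeR adjusted p = 0.840). Gja1 was at 12.3, 11.7 and 15.5 CPM in Cryab-WT and at 11.3, 13.7 and 11.5 in Cryab-R120G-homo. Its log2 difference was -0.12 (95% interval -0.70 to 0.46), which leaves out a fall of the size seen in Cryaa-R49C-homo lenses. Gja3 differed by 0.19 (95% interval -0.49 to 0.88) and Aqp5 by -0.09 (95% interval -0.71 to 0.53) on the log2 scale, and both overlapped between the groups. Gja3 was higher in the homozygous library of all 3 pairs (0.20 in the blocked fit, SE 0.28, edgeR adjusted p = 0.938). The Gm42419 row was at 23.2, 34.3 and 34.3 CPM in Cryab-WT, at 23.6, 25.6 and 33.0 in Cryab-R120G-het, and at 20.6, 30.5 and 24.4 in Cryab-R120G-homo. The groups overlapped, with a log2 difference between homozygous and wild-type lenses of -0.28 (95% interval -0.76 to 0.20, edgeR adjusted p = 0.944), and the homozygous library was the lower one in all 3 pairs (-0.27 in the blocked fit, SE 0.22, edgeR adjusted p = 0.884).

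Aqp1 was the 1 member of 5 whose mutant libraries did not overlap with the wild-type ones in this line, and its test did not pass. It was at 3.85, 4.13 and 3.56 CPM in Cryab-WT, at 3.15, 3.065 and 2.66 in Cryab-R120G-het, and at 2.49, 3.52 and 1.76 in Cryab-R120G-homo. All libraries of both mutant groups lay below all 3 wild-type libraries, in the homozygous group by a small margin (3.52 against 3.56 CPM). Groups did not overlap for 10.1% of all genes between Cryab-R120G-het and Cryab-WT and for 9.0% between Cryab-R120G-homo and Cryab-WT. The log2 difference was -0.38 (95% interval -1.13 to 0.37) in the heterozygous and -0.56 (95% interval -1.30 to 0.19, edgeR adjusted p = 0.907) in the homozygous group, and it rests on 23 to 64 reads a library. In the same comparisons 0.00717% and 0.0502% of all genes were called (1 gene, with 532 at an unadjusted p under 0.05, and 7 genes). A fit that blocked on the replicate number called 18 genes between Cryab-R120G-homo and Cryab-WT, and again no member. Aqp1 was lower in the homozygous library of all 3 pairs (-0.59 in that fit, SE 0.36, edgeR adjusted p = 0.801). Between the homozygous and heterozygous groups edgeR called 0.0% of genes, with 273 genes at an unadjusted p under 0.05, and DESeq2 called 0.

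Some marker sums also separated the wild-type from the mutant libraries on day 14, and their part in the values of the members was not tested. Lens fibre markers summed to 127973 to 131817 CPM in Cryab-WT, to 93488 to 122990 in Cryab-R120G-het and to 91491 to 110276 in Cryab-R120G-homo, with none of the 12 called in either comparison. Pigment and ciliary epithelium markers summed to 7.49 to 9.12 CPM in Cryab-WT, to 22.2 to 64.1 in Cryab-R120G-het and to 21.3 to 36.2 in Cryab-R120G-homo. Of these 9 markers 1 was called, Slc6a13, which was higher in Cryab-R120G-homo than in Cryab-WT (log2 2.71, edgeR adjusted p = 0.0352). Endothelium sums, at 4.001 to 11.7 CPM in Cryab-WT, 7.002 to 11.2 in Cryab-R120G-het and 6.88 to 11.8 in Cryab-R120G-homo, overlapped. Photoreceptor markers summed to 21.7 to 795 CPM in Cryab-WT, to 95.1 to 601 in Cryab-R120G-het and to 200 to 1189 in Cryab-R120G-homo, and the groups overlapped. None of these 6 was called against Cryab-WT, with median log2 differences of 0.11 and 1.11. Retinal glia markers, at 11.3 to 41.1, 17.2 to 38.0 and 21.1 to 54.3 CPM in the same order, overlapped too. Erythrocyte markers summed to 15.6 to 146 CPM in Cryab-WT, to 134 to 451 in Cryab-R120G-het and to 49.2 to 178 in Cryab-R120G-homo, and the groups overlapped. None of the 5 erythrocyte markers tested was called against Cryab-WT, with median log2 differences of 2.30 in the heterozygous and 0.96 in the homozygous group, where Aqp1 was at -0.38 and -0.56.

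Whether the homozygous effect differed between the lines was tested directly. For Gja1 the log2 difference between mutant and wild-type lenses was 1.89 higher in the Cryab line than in the Cryaa line (SE 0.39, 95% interval 1.07 to 2.70, edgeR adjusted p = 0.00797), and Gja1 was 1 of 5 members called where 2.91% of all genes were. With library size as the only scaling its adjusted p was 0.0760 (log2 1.86). For the Gm42419 row the difference was 1.29 (SE 0.33, edgeR adjusted p = 0.0360), and this call was lost on leaving out any 1 of 6 libraries, namely replicate 1 or 2 of Cryaa-WT (edgeR adjusted p = 0.107 and 0.0942), replicate 2 of Cryaa-R49C-homo (0.0870), replicate 1 or 3 of Cryab-WT (0.0755 and 0.0570) or replicate 2 of Cryab-R120G-homo (0.102), while the log2 difference stayed between 1.13 and 1.38 in these 6 fits. It was also lost in 3 of the 7 other fits, with library size alone (edgeR adjusted p = 0.0680), with only the groups compared (0.104) and with TMM computed without crystallins and Gm42418 (0.0503), at log2 differences of 1.18, 1.29 and 1.27. For Mip (0.27), Gja3 (0.72), Aqp5 (0.07) and Aqp1 (-1.45, edgeR adjusted p = 0.126) the difference did not pass the threshold. Without replicate 1 of Cryaa-R49C-homo it passed for Aqp1 (-1.83, edgeR adjusted p = 0.00126) and Gja3 (1.45, edgeR adjusted p = 0.00333). In that fit 1800 of 14398 genes were called, in place of 406 of 13938.

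Wild-type lenses of the 2 lines differed most in Aqp5. It had 8, 14 and 16 reads in the Cryaa-WT libraries and 111, 328 and 374 in the Cryab-WT libraries, which is 0.270 to 0.681 CPM on day 2 and 12.2, 24.9 and 24.3 CPM on day 14. Aqp5 was 43.2-fold higher on day 14 (log2 5.43, SE 0.39, 95% interval 4.62 to 6.24, edgeR adjusted p = 2.33e-09). Cornea and surface epithelium markers summed to 0.341 to 1.79 CPM on day 2 and 1.07 to 2.67 CPM on day 14 in these groups, and their part in the Aqp5 difference was not tested. Of the 2 that could be tested, Aldh3a1, an abundant enzyme of the cornea, was called higher on day 14 (log2 4.70, SE 0.74, edgeR adjusted p = 9.78e-05), on 0 to 16 reads a library. The other, the keratin gene Krt15, was not called and had a log2 difference of -1.01 (SE 1.03, edgeR adjusted p = 0.516). Mip rose 3.17-fold from 189.9 to 314 CPM on day 2 to 765 to 886 CPM on day 14 (log2 1.66, SE 0.22, edgeR adjusted p = 1.48e-05). The Gm42419 row rose 3.23-fold (log2 1.69, SE 0.24, edgeR adjusted p = 2.72e-05), to 23.2 to 34.3 CPM. Gja1 was 2.10-fold lower on day 14, at 11.7 to 15.5 CPM against 18.02 to 34.0 (log2 -1.07, SE 0.28, edgeR adjusted p = 0.00767). Without replicate 3 of Cryaa-WT the change of Gja1 was -0.90 (edgeR adjusted p = 0.0532). Gja3 (0.22, 95% interval -0.46 to 0.90) and Aqp1 (-0.07, 95% interval -0.79 to 0.64) did not pass the threshold.

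Of the 5 members 3 were thus called between the wild-type groups, where 23.2% of all genes were. The same 3 did not overlap between the groups, against 43.2% of all genes. This comparison depends on the scaling. With library size as the only scaling the median of all genes was -1.61 on the log2 scale, against -0.07 with TMM. Mip was then at 0.17 (edgeR adjusted p = 0.404) and the Gm42419 row at 0.20 (edgeR adjusted p = 0.405), so that both lost their call. Aqp1, at -1.66 (edgeR adjusted p = 9.19e-04), and Gja3, which turned to -1.29 (edgeR adjusted p = 0.00356), were called lower, and Aqp5 was at 3.89 and Gja1 at -2.70, both still called. Relative to that median, Mip was 1.79, the Gm42419 row 1.81 and Aqp5 5.503 higher, Gja3 differed from it by 0.32, Aqp1 by -0.05 and Gja1 by -1.08. Lens fibre markers moved in the same direction as Mip, with 10 of 12 called higher on day 14 and none lower. Photoreceptor markers summed to 3.75 to 14.8 CPM in Cryaa-WT and to 795, 21.7 and 83.2 in Cryab-WT, with 5 of 6 called higher. Endothelium markers summed to 29.6 to 45.9 and 4.001 to 11.7 CPM, with 6 of 7 called lower. Pigment and ciliary epithelium markers, at 21.2 to 38.2 CPM in Cryaa-WT and 7.49 to 9.12 in Cryab-WT, had 6 of 9 called lower on day 14, and macrophage markers, at 4.25 to 7.49 and 0.333 to 0.991, had all 5 called lower, as Gja1 was. The part of these in the comparison was not tested.

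Ratios of reads between members within a library do not depend on the scaling of the library. They were compared with a two-sided exact permutation test, which cannot go below p = 0.1 with 3 libraries against 3, in 25 comparisons whose smallest Benjamini-Hochberg value was 0.312. The log2 ratio of Aqp5 to Mip was -8.64, -10.1 and -8.55 in Cryaa-WT and -5.96, -5.15 and -5.10 in Cryab-WT. The 18 libraries split by line without overlap, from -10.1 to -7.90 on day 2 and from -5.96 to -4.97 on day 14, whatever the genotype. The wild-type difference was 3.69 (exact p = 0.1, adjusted 0.312). The ratio of Gja3 to Mip was -0.79 ± 0.20 (SD, n = 3) in Cryaa-WT and -2.28 ± 0.25 in Cryab-WT, a difference of -1.49 (exact p = 0.1).

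The ratio of Gja3 to Gja1 was higher in homozygous than in wild-type day 2 lenses. It was 2.22, 3.27 and 1.92 in Cryaa-WT and 4.18, 3.51 and 3.71 in Cryaa-R49C-homo (difference 1.33, exact p = 0.1, adjusted 0.312), without overlap and with replicate 1 of the homozygous group highest. In Cryab-WT this ratio was 3.70 ± 0.48 (SD, n = 3), which is 1.23 above Cryaa-WT (exact p = 0.1). The ratio of Gja3 to Mip in Cryaa-R49C-homo was 0.03, -1.37 and -1.74, on both sides of the wild-type range of -0.95 to -0.56. It was slightly higher in Cryab-R120G-homo (-1.81 ± 0.11, SD, n = 3) than in Cryab-WT (difference 0.47, exact p = 0.1, adjusted 0.312), again without overlap. The ratio of Aqp1 to Mip overlapped between Cryaa-R49C-homo and Cryaa-WT (difference 1.22, exact p = 0.2). Between Cryab-WT and Cryaa-WT this ratio differed by -1.74, without overlap (exact p = 0.1, adjusted 0.312). The ratio of the Gm42419 row to Mip was 1.05 lower in Cryaa-R49C-homo and 0.36 lower in Cryaa-R49C-het than in Cryaa-WT, both without overlap (exact p = 0.1, adjusted 0.312), and it differed by 0.0040 between the wild-type groups.

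**Figure D4:**
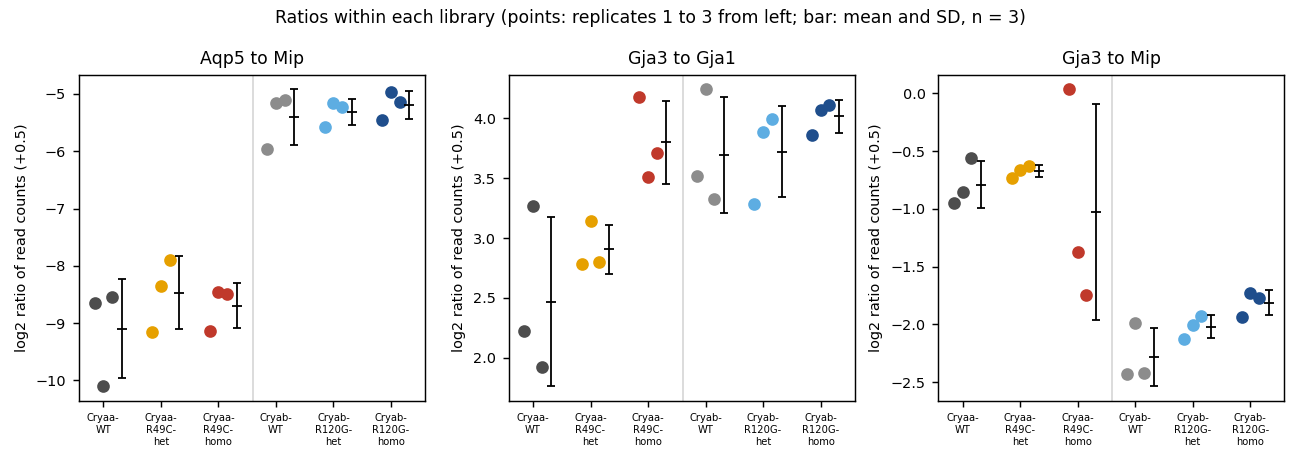
Log2 ratios of read counts (0.5 added to each count) of Aqp5 to Mip, Gja3 to Gja1 and Gja3 to Mip in each library, with the mean and SD of each group. Aqp5 to Mip separates the 9 day 2 libraries (at most -7.90) from the 9 day 14 libraries (at least -5.96), the mean of Gja3 to Gja1 is lowest in Cryaa-WT, whose libraries overlap with those of Cryaa-R49C-het, and Gja3 to Mip spreads widely in Cryaa-R49C-homo (0.03 to -1.74).

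Most other channel genes had few or no reads. Of 9 other aquaporins, 3 passed the filter on low counts (Aqp4, Aqp8 and Aqp11), 2 had no read in any library, and the highest count of the group was 142 reads, in Aqp4. None of the 3 was called within either line. Aqp4, the water channel of glial cells, was 1.89 log2 units higher in Cryab-WT than in Cryaa-WT lenses (SE 0.37, edgeR adjusted p = 9.15e-04). It is also on the list of retinal glia markers, which summed to 11.3 to 41.1 CPM in Cryab-WT and 21.1 to 41.8 in Cryaa-WT. Of 17 other connexins 6 passed the filter. Gje1, a lens connexin singled out after its values were seen, had the most reads, from 1718 to 20809 in a library, and its level was 328 ± 60.8 CPM (SD, n = 3) in Cryaa-WT. In Cryaa-R49C-homo Gje1 was at 458, 154 and 110.1 CPM in replicates 1, 2 and 3, above all wild-type libraries in replicate 1 and below them in the other two. The mean of Gje1 there was 241 ± 189 CPM, and 132 ± 31.1 without replicate 1 (SD, n = 2).

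In Cryaa-R49C-homo against Cryaa-WT lenses, 1 of the 6 tested connexins was called, where 9.79% of all genes were, with a median log2 fold change over the 6 of 0.51, against 0.00 over all genes tested. The called gene, lower in the homozygous lenses, was Gjb6, which encodes Cx30, at 0.0818 ± 0.0817 CPM against 0.638 ± 0.373 (log2 -2.74, SE 0.66, edgeR adjusted p = 0.00946), with 1 to 8 reads in a homozygous library. Against Cryaa-R49C-het, Gjb6 was lower and Gja5, a connexin of arterial endothelium, was higher (log2 3.40, SE 0.76, edgeR adjusted p = 0.00738). Gja5 had 2 to 4 reads in the heterozygous libraries and 19 to 48 in the homozygous ones, where the endothelium sums were 25.8 to 31.9 and 29.2 to 94.9 CPM. Between the wild-type groups 2 of 6 connexins were called, both lower on day 14, where 23.2% of all genes were called and 11.5% called lower. They were Gja4, a connexin of vessels (log2 -3.06, SE 0.43, edgeR adjusted p = 3.04e-05), and Gjc1 (log2 -2.23, SE 0.46, edgeR adjusted p = 0.00137), beside the fall of the endothelium sum from 29.6 to 45.9 to 4.001 to 11.7 CPM. No connexin of the list was called in the Cryab line. Of the pannexins 1 of 3 could be tested. Panx1 was called between the wild-type groups only among the comparisons made (log2 -2.04, edgeR adjusted p = 0.00874, 2 to 5 reads in Cryab-WT).

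The PMP22 family, to which Lim2 is related, had all 5 listed genes tested. None was called within either line. Between the wild-type groups, where 23.2% of all genes were called, 2 of the 5 were. Emp2 was higher (log2 2.05, SE 0.32, edgeR adjusted p = 8.81e-05) and Emp3 lower (log2 -2.89, SE 0.47, edgeR adjusted p = 1.51e-04) on day 14. Of 15 genes whose proteins bind or regulate these channels, 12 were tested, and in Cryaa-R49C-homo against Cryaa-WT 3 were called, all lower, where 4.92% of all genes were called lower. They were Bfsp1, whose protein binds AQP0 (log2 -2.23, SE 0.35, edgeR adjusted p = 1.58e-04), Prkaca, the catalytic subunit of protein kinase A (log2 -1.48, SE 0.29, edgeR adjusted p = 0.00186), and Calm2, a calmodulin gene (log2 -0.94, SE 0.23, edgeR adjusted p = 0.00982). The median over the 12 was -0.70. Between the wild-type groups 3 of the 12 were called higher on day 14, where 23.2% of all genes were called and 11.7% called higher. They were Trpv4, a calcium channel that responds to swelling (log2 2.34), Bfsp1 (log2 1.48) and Calm3 (log2 1.29). Of 13 lens transcription factors 3 were called in Cryaa-R49C-homo against Cryaa-WT, where 9.79% of all genes were. Gata3 (log2 1.39, edgeR adjusted p = 0.00110) and Pitx3 (log2 1.16, edgeR adjusted p = 0.0297) were higher and Hsf4, the heat shock factor of fibre cells, was lower (log2 -0.74, edgeR adjusted p = 0.0333) in the homozygous lenses.

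The genes whose levels went most closely with each member were found by Pearson's r of log2 CPM over the 18 libraries, after the mean of each line was taken off. The libraries share their depth and their scaling, so r is a description. Mip went with Crygc, a gamma-crystallin (r = 0.937), Grifin, a galectin-related lens protein (0.918), and St13 (0.917). Gja3 went with Dbnl (0.957), Tcp1 (0.951) and Pcmt1 (0.950). Gja1 went with Megf11 (0.932), Slc6a15 (0.924) and Acer3 (0.920), and its r with these was 0.93 to 0.98 within the 9 Cryaa-line libraries and -0.08 to 0.54 within the 9 Cryab-line libraries. Aqp1 went with Fam133b (0.915), Abcb1a, a drug efflux pump of brain vessels (0.895), and Zc3hav1 (0.892). The closest genes to Aqp5 reached only 0.744 (Zfp663), 0.733 (Cd63-ps) and 0.725 (Anxa2), with 5.61 reads a library on average for Zfp663. The Gm42419 row went with Shc1 (0.961), Slc7a13 (0.956) and Gm20757 (0.955). Among the members, Mip and the Gm42419 row had r = 0.834, Gja1 and Gja3 0.665, Mip and Gja3 0.580 and Aqp1 and Gja3 -0.775.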

How the data were processed

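RNA of pooled lenses was sequenced from poly-A libraries as single 50-base reads. Per the labels, the processing tools were STAR 2.0.4b, featureCounts 1.4.5 and CASAVA 1.8 on GRCm38; per the paper's methods, uniquely aligned unambiguous reads were counted. The deposited counts are raw read counts per gene, and 40800 identifiers were kept from 41422 lines that repeat genes. The deposited RPKM values were used only to read back the gene length behind them. CPM and moderated log2 CPM tables were not used.

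Counts were TMM-scaled and fitted with edgeR 4.0.16 (R 4.3.3; limma 3.58.1) in 1 quasi-likelihood model over the 6 groups and 18 libraries, for the 13938 genes kept by filterByExpr. The study's own gene set (26547 genes with at least 1 count) was an alternative, because the prior degrees of freedom are infinite there (10.2 here). Adjusted p is Benjamini-Hochberg over all genes of a contrast, with a threshold of 0.05. DESeq2 1.42.0, other scalings, a fit of only the groups compared, a replicate block and leaving out each library were alternatives. Log2 CPM used a prior count of 2, and ratios added 0.5 counts. Positions are from GENCODE vM21. Promoters of all 6 members were in the RefSeq table. Fits were tested on simulated data.

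The members, lists and tests were chosen with earlier results of these data known. Named genes are the members, at most 4 called genes per list and contrast by size of change, and the 3 closest genes to each member. Some genes of the lists are not reported here and were left out of the counts and medians of their lists. Replicates are separate lens pools, and equal replicate numbers were treated as pairs only for Cryab-R120G-homo against Cryab-WT, where each same-numbered pair had r above 0.1 (0.277, 0.176 and 0.156). The labels do not link these libraries, and r was not computed between libraries of unequal number.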

Additional observations from a re-analysis of the deposited data

Results flagged for a closer look

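The homozygous effect on Gja1 differed between the lines. The log2 difference between homozygous and wild-type lenses was 1.89 higher in the Cryab line than in the Cryaa line, in the test of the difference itself (SE 0.39, edgeR adjusted p = 0.00797). All 3 Cryaa-R49C-homo libraries (3.88 to 10.2 CPM) lay below all 3 Cryaa-WT libraries (18.02 to 34.0 CPM), whereas Cryab-R120G-homo (11.3 to 13.7 CPM) and Cryab-WT (11.7 to 15.5 CPM) overlapped.

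The reads at the Lim2 locus, in the Gm42419 row, had a difference between the lines of 1.29 (SE 0.33, edgeR adjusted p = 0.0360). This call passed the threshold in 4 of 7 other fits and in 6 of 12 fits with 1 library left out, with an adjusted p of up to 0.107, whereas that of Gja1 passed in 6 of 7 and 12 of 12. The age of the lenses and the line cannot be told apart in either difference.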

How the results depend on the processing

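The number of genes past the threshold moved by more than 1.5 times under several settings. With all genes of at least 1 count edgeR called 17 genes between Cryaa-R49C-het and Cryaa-WT (1 in the reported fit), 140 between Cryab-R120G-het and Cryab-WT (1), 302 between Cryab-R120G-homo and Cryab-WT (7), 15 between the Cryab mutant groups (0) and 798 for the difference between the lines (406). DESeq2 called 2, 12, 20 and 626 in the first 3 of these and the last. A fit of only the groups compared called 0 between Cryaa-R49C-het and Cryaa-WT, 478 between Cryaa-R49C-homo and Cryaa-WT (1365), 294 between the Cryaa mutant groups (1160), 2 between Cryab-R120G-homo and Cryab-WT and 209 for the difference between the lines. TMM without crystallins and Gm42418 called 0 between Cryaa-R49C-het and Cryaa-WT. With library size alone 2138 were called between Cryaa-R49C-homo and Cryaa-WT, of which 1884 were higher and 254 lower (679 and 686 with TMM), 11593 between the wild-type groups (3237), of which 157 were higher and 11436 lower (1634 and 1603 with TMM), and 256 for the difference between the lines. The cause was not tested.

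Members past the threshold in Cryaa-R49C-homo against Cryaa-WT were 2 (1 in the reported fit) with all genes, with DESeq2 and under library size alone, where 5.64%, 12.2% and 15.3% of genes were called (9.79% in the reported fit). They were 1 in place of 2 between the Cryaa mutant groups in the fit of only those groups, where 2.2% of genes were called in place of 8.32%. For the difference between the lines 1 member was called in the reported fit, 2 with all genes and 0 under library size alone, where 2.91%, 3.01% and 1.84% of genes were called. Library size alone also turned directions that had not passed the threshold with TMM. Mip (0.21) turned between Cryaa-R49C-het and Cryaa-WT, and Aqp5 turned in Cryaa-R49C-homo (0.26). Mip (0.11), Aqp5 (0.13) and Gm42419 (0.037) turned in Cryab-R120G-het. Mip (0.10), Aqp5 (0.25), Gja1 (0.25) and Gm42419 (0.063) turned in Cryab-R120G-homo against Cryab-WT, and Aqp5 (0.12) and Gm42419 (0.026) between the Cryab mutant groups. Gja3 turned to -1.29 between the wild-type groups and Aqp5 to -0.010 for the difference between the lines. That setting moved the median of all genes to 0.21, 0.41, 0.21, 0.37, 0.15, -1.61 and -0.03 in these 7 contrasts. Aqp5 turned to 0.0064 between the Cryab mutant groups in the fit of only those groups. The ratio of Gm42419 to Mip between the wild-type groups turned to -0.00281 with 5 counts added.

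The replicate number as a block gave 3 calls in place of 1 in Cryab-R120G-het against Cryab-WT and 18 in place of 7 in Cryab-R120G-homo against Cryab-WT. It changed the call of no member in any contrast that could be blocked within a line. In no contrast do the labels link same-numbered libraries by more than that number. In the contrasts not treated as paired, r ranged from -0.283 to 0.481. No paired analysis was possible for the wild-type groups because they come from different lines.

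Leaving out 1 library gave 0 to 2 called genes in Cryaa-R49C-het against Cryaa-WT, 731 to 3094 in Cryaa-R49C-homo against Cryaa-WT (1 to 3 members), 453 to 4131 between the Cryaa mutant groups (1 to 3 members), 0 to 3 in Cryab-R120G-het, 1 to 13 in Cryab-R120G-homo, 1782 to 3172 between the wild-type groups and 243 to 1800 for the difference between the lines (1 to 3 members). The sign of these log2 differences, none past the threshold, depended on 1 library. In Cryaa-R49C-het Mip ranged from -0.23 to 0.11 and Gja3 from -0.10 to 0.21, and in Cryaa-R49C-homo Aqp5 from -0.46 to 0.16. In Cryab-R120G-het Aqp5 ranged from -0.32 to 0.10. In Cryab-R120G-homo against Cryab-WT Aqp5 ranged from -0.35 to 0.087 and Gja1 from -0.21 to 0.016. Between the Cryab mutant groups Aqp1 ranged from -0.47 to 0.028, Aqp5 from -0.23 to 0.15, Gja3 from -0.077 to 0.16 and Gm42419 from -0.28 to 0.033. Between the wild-type groups Aqp1 ranged from -0.23 to 0.044 and Gja3 from -0.0052 to 0.34, and for the difference between the lines Aqp5 ranged from -0.25 to 0.38. Of the ratios to Mip, Aqp5 ranged from -0.10 to 0.67 in Cryaa-R49C-homo, from -0.19 to 0.24 in Cryab-R120G-het and from -0.063 to 0.37 in Cryab-R120G-homo. Aqp1 to Mip ranged from -0.51 to 0.13 in Cryaa-R49C-het and Gja3 to Mip from -0.77 to 0.12 in Cryaa-R49C-homo. Gja3 to Gja1 ranged from -0.16 to 0.30 in Cryab-R120G-het. Gm42419 to Mip ranged from -0.19 to 0.028 in Cryab-R120G-het, from -0.15 to 0.070 in Cryab-R120G-homo and from -0.083 to 0.13 between the wild-type groups.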
